A study of Mus musculus with 2 samples.

Results

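The microRNA genes of the imprinted Igf2, H19, Mest and Gnas loci were followed in the mouse adrenal gland. They are Mir483 in Igf2, Mir675 in H19, Mir335 in Mest, and Mir296 and Mir298 beside Nespas and Gnas. They were chosen by symbol in GENCODE M21, which gave 5 genes of 2202 in the tables. All samples were adrenal gland tissue of wild-type C57BL/6J mice from The Jackson Laboratory, with no treatment named and age unknown. Sex is not given alike by all labels, with female in the description and no record of sex elsewhere. Total RNA in the size class under 30, presumably nt, was sequenced in 2 libraries of 1 group, biological replicates 2 and 1. The libraries carry separate tissue samples and the same donor identifier, so whether they came from separate animals is not stated, and their differences may be technical.

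At an imprinted locus the maternal and the paternal chromosome are not transcribed alike. Igf2, Mest and the antisense RNA Nespas are known in mouse as transcribed mainly from the paternal chromosome, and H19 mainly from the maternal chromosome. Igf2 encodes a fetal growth factor, H19 is a long noncoding RNA that is abundant before birth, Mest encodes a protein related to hydrolases, and Gnas encodes the stimulatory G protein subunit through which the ACTH receptor of the adrenal cortex signals. A microRNA is cut from a hairpin in such a transcript, and bases 2 to 8 of the mature product, the seed, do most of the pairing with target mRNAs. Reads here were counted per hairpin gene, so neither the arms of a hairpin nor the parental chromosomes were told apart.

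The hairpins are shown because their arms are what the reads come from. RefSeq sequences on GRCm38.p6 (the mm10 assembly) matched 5 of 5 genes, and each was identical to its GENCODE M21 transcript. Capitals mark the mature products of the 5′ and 3′ arms.
Mir483: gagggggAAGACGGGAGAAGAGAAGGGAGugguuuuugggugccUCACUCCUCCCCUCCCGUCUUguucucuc
Mir675: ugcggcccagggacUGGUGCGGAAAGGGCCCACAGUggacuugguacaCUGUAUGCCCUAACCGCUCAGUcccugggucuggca
Mir335: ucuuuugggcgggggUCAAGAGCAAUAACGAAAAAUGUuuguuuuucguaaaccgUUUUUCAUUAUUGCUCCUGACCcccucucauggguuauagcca
Mir296: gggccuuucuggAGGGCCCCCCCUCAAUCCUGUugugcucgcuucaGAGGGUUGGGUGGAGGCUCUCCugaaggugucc
Mir298: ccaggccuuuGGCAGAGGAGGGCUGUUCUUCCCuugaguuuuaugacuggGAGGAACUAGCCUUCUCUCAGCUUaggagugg

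The mature products are shown with the seed in capitals, to compare what each could pair with.
miR-483-5p: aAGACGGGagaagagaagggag
miR-483-3p: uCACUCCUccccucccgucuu
miR-675-5p: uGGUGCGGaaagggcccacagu
miR-675-3p: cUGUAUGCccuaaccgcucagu
miR-335-5p: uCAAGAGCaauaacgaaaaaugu
miR-335-3p: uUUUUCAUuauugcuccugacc
miR-296-5p: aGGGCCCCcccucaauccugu
miR-296-3p: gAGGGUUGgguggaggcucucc
miR-298-5p: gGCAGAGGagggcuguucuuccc
miR-298-3p: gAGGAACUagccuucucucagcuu

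The 10 mature products had 10 different seeds, and none shared its seed with a product of any other gene in the RefSeq table. Over all 1738 mature products of that table, 32.0% shared a seed with another gene. None of the 10 sequences occurred in another RefSeq hairpin, or in a GENCODE transcript of another gene apart from H19, which contains Mir675. Copies outside annotated transcripts were not searched. The hairpins differed in base composition, with 42.9% G and C in Mir335 against 63.3% in Mir296, 63.1% in Mir675, 58.9% in Mir483 and 53.7% in Mir298. The median over 1005 RefSeq hairpins was 51.7%.

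Mir483 lies on chromosome 7 at 142654924-142654996 (mm10, minus strand), in an intron of all 7 annotated Igf2 transcripts that cover it and of the overlapping gene Gm49394. Mir675 lies 77776 bases away at 142577064-142577147 on the same strand, inside an exon in 3 of 4 covering H19 transcripts. Mir335 lies on chromosome 6 at 30741299-30741396 (plus strand), in an intron of all 7 covering Mest transcripts. Mir296 (174267047-174267125) and Mir298 (174267504-174267585) lie on the minus strand of chromosome 2, with 378 bases between them. No other gene of GENCODE M21 covers either. Both lie downstream of the annotated 3′ end of Nespas, a gene on the same strand, with 13651 bases between that end and Mir298. Between Mir298 and Gnas, on the other strand, are 16734 bases.

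**Figure D1:**
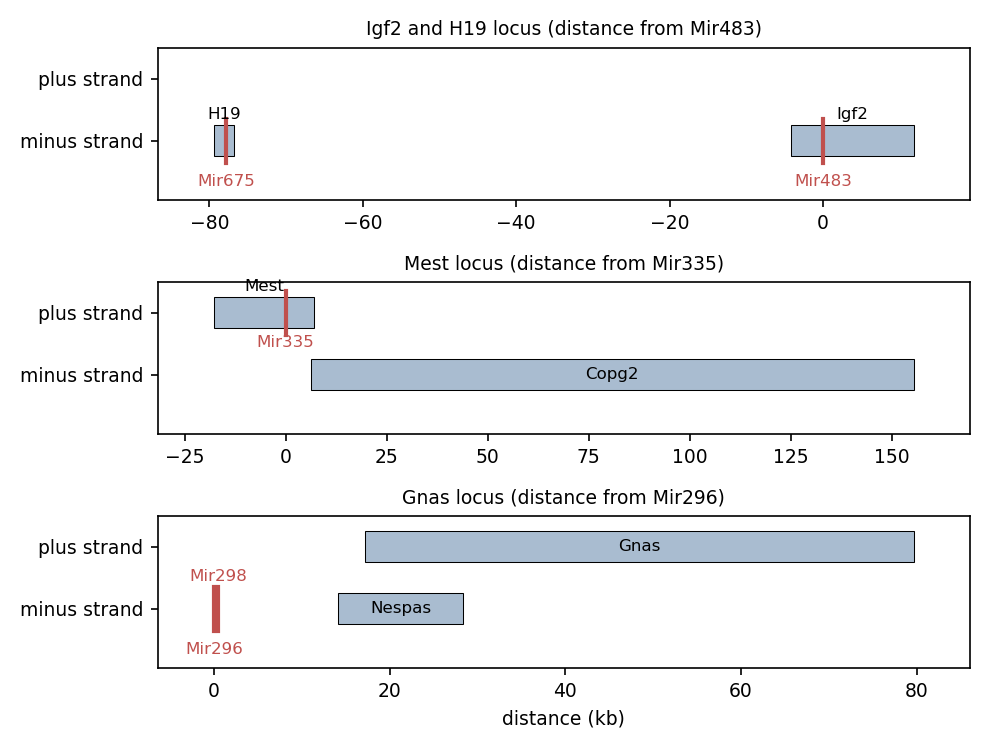
Maps of the 3 loci with distance in kb from a microRNA gene on the x axis and the strand on the y axis. Blue boxes are annotated genes and red lines are microRNA genes. Mir483, Mir675 and Mir335 lie inside host genes, while Mir296 and Mir298 lie 14111 and 13651 bases outside the annotated Nespas gene.

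The replicate 2 library had 6570375 gene-strand reads on microRNA genes (45.4% of its reads) and replicate 1 had 9137907 (48.8%). Levels are CPM, the counts per 1000000 of these totals. A read spans a mature product, so CPM was compared between genes with no scaling by length. Reads with several alignments, 36.0% and 35.9% of the reads of replicates 2 and 1, are not in any gene's count. No microRNA was fixed as a marker of the adrenal gland itself. Among cell type lists, the neuroendocrine genes, led by Mir375, Mir7b and Mir7-1, summed to 51805 and 54062 CPM in replicates 2 and 1. Endothelial Mir126a had 54325 and 61677 CPM, and the mesenchymal genes, led by Mir143, Mir214 and Mir145a, summed to 15034 and 18914 CPM. The adipose genes, led by Mir455, Mir378a and Mir193a, summed to 4019 and 3609 CPM, and the erythroid genes, led by Mir451a, Mir144 and Mir486, to 295 and 144 CPM. Liver Mir122 had 71.5 and 128 CPM, and the kidney genes, led by Mir204, Mir192 and Mir194-2, summed to 118 and 112 CPM. Of the 5 striated muscle genes, 4 were at 0 in both libraries, with Mir206 at 3 and 2 counts, and those at 0 have copies whose reads may be among those with several alignments. The part of these cell types in the levels below was not tested.

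Of the 5 imprinted microRNA genes, 4 reached 10 counts in each library, as did 403 of all 2202 genes, and 1 had none, as did 1384 of 2202 (62.9%). Together they held 0.375% of the gene counts in replicate 2 (exact binomial 95% interval from 0.370 to 0.380), against 0.309% in replicate 1 (0.305 to 0.312), and averaged 0.342% ± 0.0468 (SD, n = 2). No member had a count on the strand opposite to its gene in either library. These intervals and limits cover counting error only.

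Mir335, the microRNA of the Mest intron and known in human breast cancer cells as a suppressor of metastasis, was the most abundant of the genes. It had 12415 counts in replicate 2 and 19116 in replicate 1, or 1890 CPM (95% counting interval 1856 to 1923) and 2092 CPM (2062 to 2122). Its mean of 1991 ± 143 CPM (SD, n = 2) ranked 51 among all genes. Mir335 held 50.4% of the 5 genes' counts in replicate 2 and 67.8% in replicate 1. The nearest microRNA genes on either side, 321263 and 571561 bases away, were Mir29a (5726 and 6557 CPM in replicates 2 and 1) and Mir183 (260 and 217 CPM). Mir335 thus lay between the levels of its neighbours in both libraries.

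Mir298, whose product is known to target the Bace1 mRNA in mouse, came next at 1093 ± 679 CPM (SD, n = 2), rank 71. It had 10333 counts, or 1573 CPM (1542 to 1603), in replicate 2, against 5601 counts, or 613 CPM (597 to 629), in replicate 1. Among the 5 genes the libraries differed most for Mir298, which ranked 61 in replicate 2 and 97 in replicate 1. Mir296, known to promote vessel growth in human endothelial cells, had 1768 counts, or 269 CPM (257 to 282), in replicate 2, against 3282 counts, or 359 CPM (347 to 372), in replicate 1. Its mean was 314 ± 63.7 CPM (SD, n = 2), rank 125. The next microRNA gene to the other side of Mir296, Gm27591 on the opposite strand at 19051 bases, had no count in either library.

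Mir483, the microRNA of the Igf2 intron and known in human as raised in adrenocortical carcinoma, was detected at a low level. It had 117 counts, or 17.8 CPM (14.7 to 21.3), in replicate 2, and 212 counts, or 23.2 CPM (20.2 to 26.5), in replicate 1. The mean was 20.5 ± 3.81 CPM (SD, n = 2), rank 254, and the mean of Mir335 was 97.1 times as high. Mir675, which is cut from H19 RNA and known to limit placental growth in mouse, had 0 counts in both libraries. A count of 0 allows up to 3 counts, or 0.457 CPM in replicate 2 and 0.328 CPM in replicate 1. The exact Poisson 95% interval given for the other genes reaches 0.561 CPM in replicate 2 and 0.404 CPM in replicate 1. Both limits hold for uniquely aligned reads that were counted on the gene, and a count of 0 does not show that Mir675 is absent. The gene-strand column listed 0 ambiguous reads in either library. Whether reads of Mir675 were lost in alignment or counting was not tested. Outside the Igf2 and H19 pair, the nearest microRNA genes were Mir7064, with 0 and 3 counts in replicates 2 and 1, and Mir3104, with 2 and 1.

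**Figure D2:**
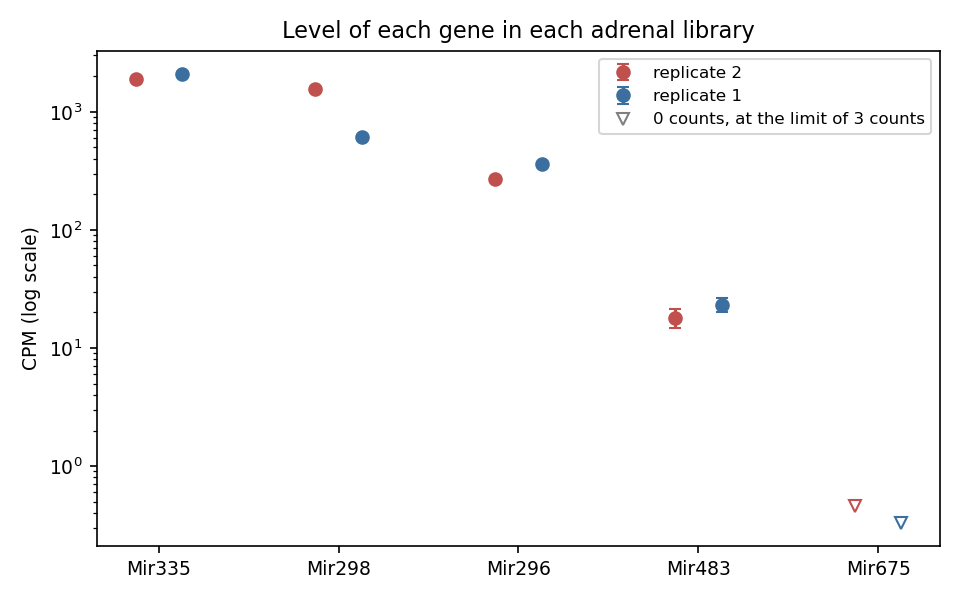
CPM on a log axis for each of the 5 genes, with replicate 2 left of replicate 1, and bars for the exact Poisson 95% counting interval where it is wider than the point. Triangles stand for 0 counts and are drawn at the limit of 3 counts. Mir335 lies at 1890 and 2092 CPM in replicates 2 and 1, Mir298 is at 1573 and 613 CPM in replicates 2 and 1, and Mir675 has no count.

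The order Mir335, Mir298, Mir296, Mir483, Mir675 held in each library, and the ranges of neighbours in that order did not overlap. It was the same per 100 bases of hairpin, at 2031, 1333, 398, 28.1 and 0 CPM. The margin was smallest between Mir335 and Mir298 in replicate 2, where the ratio was 1.20 (interval 1.17 to 1.23), against 3.41 (3.31 to 3.52) in replicate 1. The spread of Mir298 between the libraries, 2.57-fold in CPM, was larger than the margin in replicate 2.

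**Figure D3:**
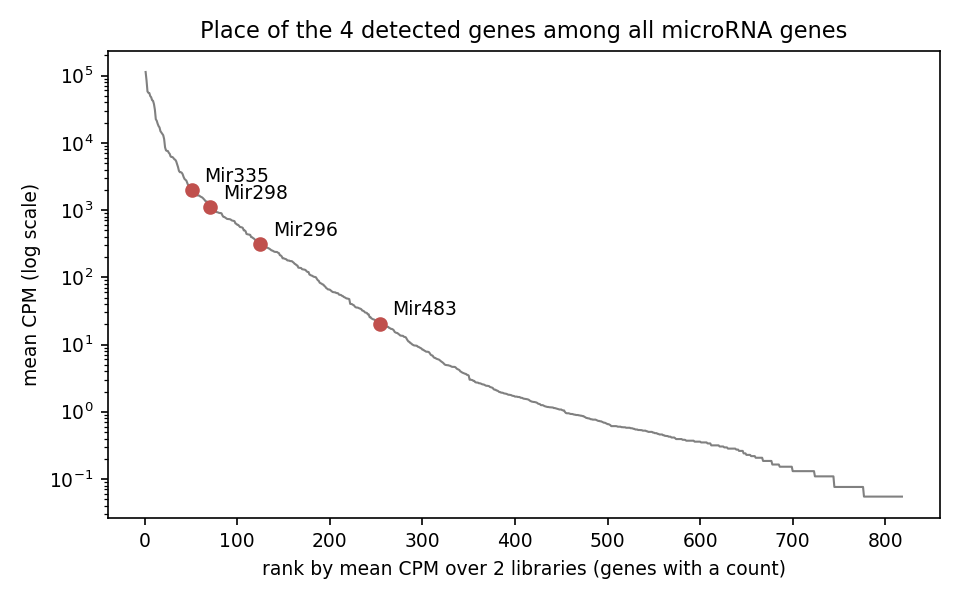
Mean CPM over 2 libraries on a log axis against rank, for the 818 genes with a count. Red points mark Mir335 at rank 51, Mir298 at rank 71, Mir296 at rank 125 and Mir483 at rank 254.

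With 1 group, only the difference between the libraries could be measured. Genes with at least 20 counts over both libraries were compared with an exact two-sided binomial test against the ratio of TMM-scaled library sizes, which compares these 2 libraries under counting error and not conditions or animals. Over all genes 239 of 426 tested passed an adjusted p threshold of 0.05 (56.1%). Replicate 2 was the higher for 110 of them (25.8% of tested genes) and replicate 1 for 129 (30.3%), or 150 and 93 by total counts. TMM moved every log2 ratio by -0.10. Among the 184 tested genes at a mean of 100 CPM or more, 85.9% were called, so a call is common at the depth of Mir335, Mir298 and Mir296.

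All 4 detected members were called, beside 56.1% of all tested genes, 1 higher in replicate 2 and 3 higher in replicate 1, and Mir675 could not be tested. Mir298 was 2.39-fold higher in replicate 2, with a log2 ratio of 1.26 (95% counting interval 1.21 to 1.30). Its exact binomial p was too small for double precision to hold. Mir296 was lower in replicate 2, with a log2 ratio of -0.52 (-0.60 to -0.44, adjusted p = 1.61e-34). Mir483 had a log2 ratio of -0.48 (-0.82 to -0.15, adjusted p = 0.00804) and Mir335 of -0.25 (-0.28 to -0.22, adjusted p = 1.13e-50), both lower in replicate 2. The median log2 ratio over the 4 tested members was -0.37, and -0.03 over all 426 genes.

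The sizes of these differences were set beside those of all genes. The median absolute log2 ratio of all tested genes was 0.29, and 54 of 426 (12.7%) exceeded a 2-fold difference. The absolute ratio of Mir298 was larger than that of 91.8% of tested genes, and ranked 13 of the 184 genes at a mean of 100 CPM or more. Mir296 exceeded 68.1%, Mir483 65.5% and Mir335 43.9% of tested genes. The common biological coefficient of variation between the libraries, from edgeR, was 0.300. The erythroid sum was also higher in replicate 2, at 295 CPM against 144 CPM in replicate 1, though its gene Mir144 was not called. In CPM without TMM scaling, the adipose and kidney sums were higher there too, while the neuroendocrine, endothelial, mesenchymal and liver levels were lower. Genes within a list were split. Of 8 tested adipose genes 3 were called higher in replicate 2 and 3 in replicate 1. For the 3 kidney genes these calls were 1 and 1, and for the 5 mesenchymal genes 1 and 2. Over all tested genes the shares were 25.8% and 30.3%. The median log2 ratio, with TMM, was -0.19 for kidney and 0.10 for mesenchymal genes, each opposite to the sum. The part of any of these cell types in the difference of Mir298 was not tested.

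**Figure D4:**
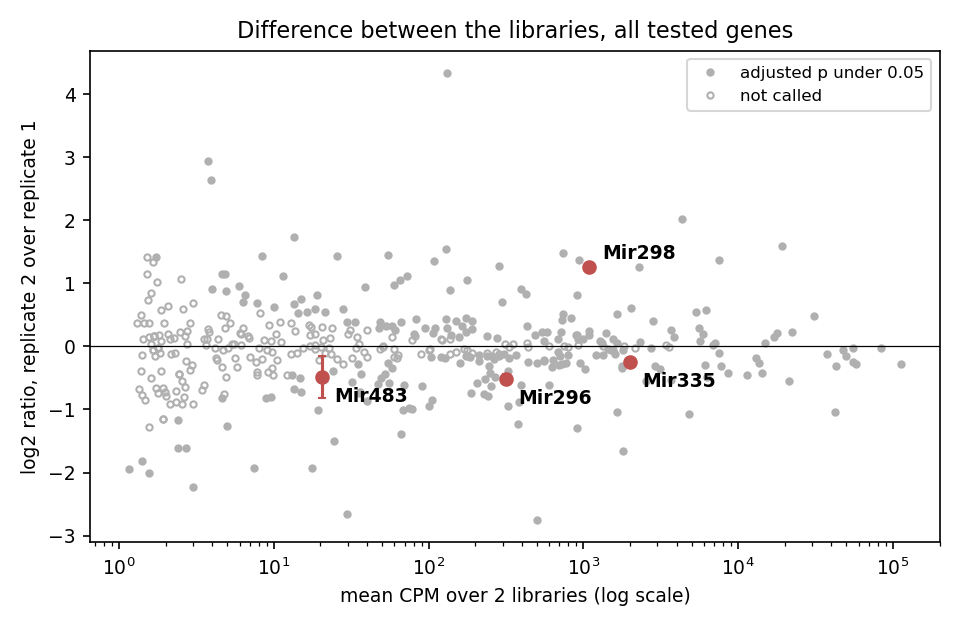
Log2 ratio of replicate 2 over replicate 1 against mean CPM (log axis) for 426 tested genes, with filled grey points for called genes and open points for the rest. Red points are the 4 tested members with 95% counting intervals. Mir298 lies at 1.26, while Mir335, Mir296 and Mir483 lie between -0.25 and -0.52.

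Mir296 and Mir298 therefore differed in opposite directions although they lie 378 bases apart on the same strand. There were 5.84 Mir298 reads per Mir296 read in replicate 2 (interval 5.56 to 6.15), against 1.71 in replicate 1 (1.63 to 1.78). The ratio was 3.42 times as high in replicate 2 (exact interval 3.20 to 3.66), a value that no scaling of the libraries enters. The other members kept more similar proportions. The Mir335 to Mir296 ratio was 7.02 in replicate 2 and 5.82 in replicate 1, a 1.21-fold difference (1.13 to 1.28). Mir296 had 15.1 reads per Mir483 read in replicate 2 and 15.5 in replicate 1, and the interval of that difference, 0.769 to 1.24, includes equal ratios. The Mir335 to Mir483 ratio was 106 in replicate 2 and 90.2 in replicate 1, also with an interval that includes equal ratios (0.933 to 1.49). The low counts of Mir483, 117 and 212 in replicates 2 and 1, widen both intervals. At 1.18-fold, the Mir335 to Mir483 difference was near that of Mir335 to Mir296. By contrast, the Mir298 to Mir483 ratio was 88.3 in replicate 2 and 26.4 in replicate 1, a 3.34-fold difference (2.65 to 4.24).

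The sum over the 5 genes followed Mir298. It was 3749 CPM in replicate 2 and 3087 CPM in replicate 1, a 1.21-fold difference, and 2176 and 2474 CPM with Mir298 left out. The direction between the libraries was thus the opposite without that gene. Mir298 made up 41.9% of the 5 genes' counts in replicate 2 and 19.9% in replicate 1. Mir296 made up 7.18% and 11.6%, and Mir483 0.475% and 0.751%.

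Neighbouring microRNA genes were compared to place the Mir296 and Mir298 pair, a comparison chosen after its values were seen. There were 116 pairs of tested genes next to each other on the same strand within 10000 bases. The median absolute difference of their log2 ratios was 0.44, and 90% of pairs lay under 1.24. Mir296 and Mir298, at 1.78, ranked 4. The pairs ahead were Mir16-1 and Mir15a (2.47), Mir96 and Mir183 (2.08) and Mir201 and Mir547 (1.89). A mature sequence of the first of these pairs also occurs in another hairpin, and reads with several alignments are not in its counts. The part of such reads in its difference was not tested. The other 2 pairs each hold a gene under a mean of 20 CPM, and within each pair the counting intervals did not overlap. The log2 ratio was -1.92 for Mir96 (counting interval -2.40 to -1.49) and 0.16 for Mir183 (0.06 to 0.25). It was -1.50 for Mir547 (-1.86 to -1.16) and 0.39 for Mir201 (-0.06 to 0.85).

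**Figure D5:**
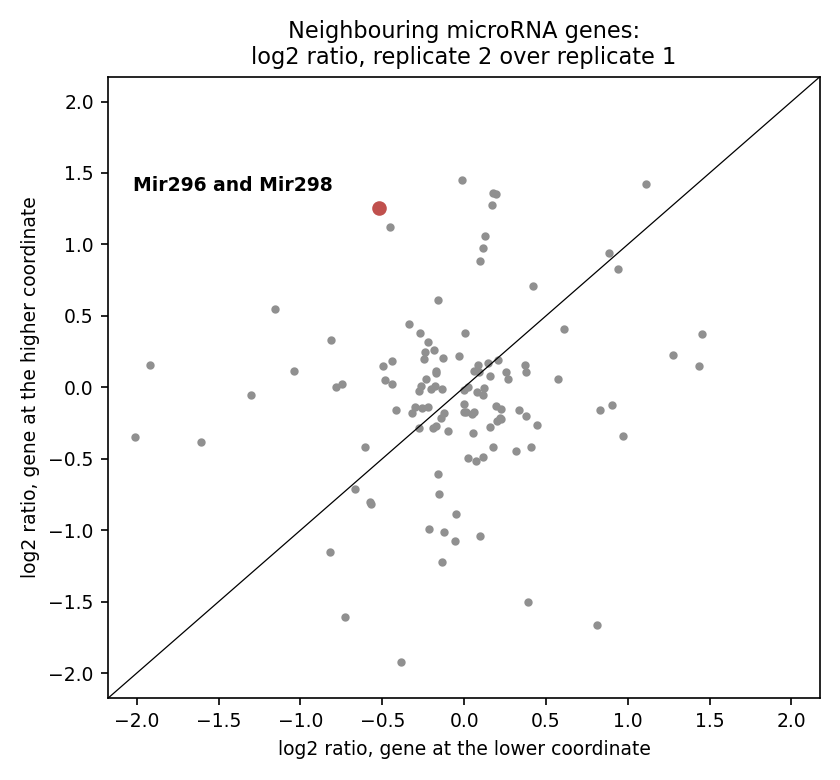
Log2 ratio of replicate 2 over replicate 1 for the gene at the higher coordinate against that for the gene at the lower coordinate, for 116 pairs of neighbouring genes. The line marks equal ratios. The red point of Mir296 (-0.52) and Mir298 (1.26) lies far above it.

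The genes closest in level to each detected member were found by the largest absolute difference in log2(CPM + 1) over the 2 libraries. For Mir298 they were Mir1839, at 1385 and 501 CPM in replicates 2 and 1 (difference 0.29), and Mir16-1, at 1189 and 631 CPM (0.40). Both were also higher in replicate 2, which this measure of likeness favours. For Mir335 they were Mir361, at 1639 and 1888 CPM (0.21), and Mir433, at 2193 and 2089 CPM (0.22). For Mir296 they were Mir182, at 291 and 355 CPM (0.11), and Mir142, at 231 and 416 CPM (0.22). For Mir483 they were Mir493, at 18.9 and 20.5 CPM (0.17), and Mir200c, at 20.9 and 19.5 CPM (0.24). With 2 libraries such a match describes level more than pattern.

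Other imprinted loci hold far more microRNA genes. Between Dlk1 and Dio3 on chromosome 12, 51 of 67 genes reached 10 counts in each library and 10 were at 0. They were led by Mir127, Mir411 and Mir379, and summed to 58621 CPM in replicate 2 and 48569 CPM in replicate 1. Of the 51 tested, 19 were higher in replicate 2, 18 were higher in replicate 1 and 14 were not called, beside 25.8% and 30.3% of all tested genes called in these directions. Their median log2 ratio was 0.01. Inside Sfmbt2, whose microRNAs are known from mouse placenta, 8 of 119 genes reached 10 counts in each library and 104 were at 0. They were led by Mir467d, Mir467e and Mir669o, and summed to 1134 and 1057 CPM in replicates 2 and 1, with 1 higher in replicate 2, 2 higher in replicate 1 and 5 not called, where 56.1% of all tested genes were called in either direction. Mir335 alone, at 1890 and 2092 CPM, exceeded the Sfmbt2 sum in both libraries. Many Sfmbt2 genes are near-copies, and their reads with several alignments are not in that sum.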

How the data were processed

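MicroRNA-seq was read from 2 adrenal gland libraries in 1 group. The authors deposited raw read counts per microRNA gene in 3 columns, taken from their layout as either strand, the strand of the gene and the opposite strand. The build (mm10) and annotation (GENCODE M21) are given in the description deposited beside the tables, and adapter trimming per the labels' protocols. The software that aligned and counted the reads is not given in the sources used here. Rows for unmapped, multi-aligned, ambiguous and unannotated reads were left out of library sizes. All 2202 identifiers matched GENCODE M21.

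CPM, exact Poisson and Clopper-Pearson intervals, binomial tests and Benjamini-Hochberg adjustment over 426 genes were computed with scipy 1.17.1. Each log2 ratio had 0.5 counts added to each library. TMM factors and dispersion came from edgeR 4.0.16 and alternative size factors from DESeq2 1.42.0. Over the tested genes the chi-square between libraries was 353924 (425 degrees of freedom), so they were not counted as repeats of a single library. Members, lists and tests were chosen with earlier results of these data known. Genes named are the members, their nearest microRNA genes, the 2 closest in level, and the 3 leading genes of each list. Pairs of neighbouring genes were added after the values were seen.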

Additional observations from a re-analysis of the deposited data

How the results depend on the processing

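The log2 ratios of Mir298, Mir296, Mir483 and Mir335 kept their direction and their call when scaled by total counts or DESeq2 size factors, with no filter on low counts, and with counts on either strand. With no filter and on either strand the members' own counts were unchanged, so only the p adjustment or the library scaling could differ there. The adjusted p of Mir483 ran from 0.00592 to 0.0390 over these settings (exact binomial test), and the log2 ratio of Mir298 from 1.25 to 1.36. The number of genes called ran from 217 to 243. Per all reads of the tables in place of reads counted on genes, mean levels were 939 CPM for Mir335, 507 CPM for Mir298, 149 CPM for Mir296, 9.70 CPM for Mir483 and 1604 CPM for the sum of the 5 genes, since the denominator is larger. Over counts on either strand, from which reads on overlapping genes are missing, Mir335 had 2191 CPM. The count of 4 detected genes could not change at 5 counts, on either strand or in each library alone. Each of the 4 had at least 117 counts in each library, Mir675 had 0, and no member had counts on the opposite strand. The Mir296 and Mir298 pair ranked 2 of 51 among pairs at 100 CPM or more, 4 of 71 and 2 of 32 within 1000 bases (all pairs and those at 100 CPM or more), 3 of 81 without copies and 1 of 35 with no copies at 100 CPM or more. These subsets were chosen after the values were seen and leave out pairs ranked ahead, so its rank in them is no further support. No paired analysis was possible because there is 1 group. With 2 libraries no test across animals could be made. Mir483 rests on 117 and 212 counts in replicates 2 and 1, and the cause of the 0 counts of Mir675 was not tested.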
